A study of Mus musculus with 23 samples.

Results

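The genes described here are the 30 genes of cholesterol and fatty acid synthesis named in a fixed list, out of 24475 genes measured by RNA sequencing in 23 mouse samples. They comprise 7 enzymes of the mevalonate segment, 11 of the squalene and sterol segment, 5 genes that control the SREBP transcription factors, 6 genes of fatty acid synthesis and 1 sterol transport protein, and every one of them passed the filter on low values in each comparison. The samples were 6 thymuses of normal C57BL/6 mice (age not given in the sources used here), 14 spleens with T-cell acute lymphoblastic leukemia derived from wild-type thymus (WT T-ALL) and 3 derived from Notch3 knockout thymus (Notch3 KO T-ALL). The hosts of both T-ALL groups were BALB/c mice deficient in Rag2 and Il2rg (Rag2-/-Il2rg-/-), 6 to 8 weeks old when they received a lobe of thymus from a donor aged 1 day under the kidney capsule. Wild-type donors were B6.Ly5.1 mice, congenic on the C57BL/6 background. Notch3 knockout donors carried β-galactosidase in the first coding exon of Notch3. Spleens were unfractionated, so host erythroid and myeloid cells were sequenced along with leukemic cells, and tissue and host strain part with the comparison against thymus and cannot be told apart from leukemia.

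Cells make cholesterol from acetyl-CoA through mevalonate, farnesyl diphosphate, squalene and lanosterol. The SREBP transcription factors, encoded by Srebf1 and Srebf2, are held in the endoplasmic reticulum by Scap and the Insig proteins when sterols are plentiful, and move to the nucleus to turn on synthesis genes when sterols fall. Liver X receptors respond to oxysterols in the opposite way and turn on Srebf1 and genes of cholesterol export. Dividing lymphocytes are known to need both sterols and fatty acids for new membrane.

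T-cell markers were found in every library, with a scaled RPKM summed over 12 genes of 4422 to 5807 (thymus), 1137 to 3156 (WT T-ALL) and 1607 to 2164 (Notch3 KO T-ALL). The hemoglobin share of the summed RPKM was at most 0.117% in thymus, between 0.0874% and 5.92% among WT T-ALL libraries, and between 4.05% and 15.5% among those of Notch3 KO T-ALL. WT T-ALL 108 and 110 stood apart by their neutrophil markers, with sums of 17484 and 84652 against 637 to 5710 in the other WT T-ALL libraries. The libraries also fell into a pair of sets by the levels of Srsf4 and Sco2, a split seen in the data and absent from the labels. Set A held thymus 5 and 6, WT T-ALL 3, 4, 5 and 7 and all 3 Notch3 KO libraries, and set B the other 4 thymus and 10 WT T-ALL libraries. Notch3 itself was listed at 3.22, 2.59 and 3.74 in the libraries labelled Notch3 KO T-ALL 1, 2 and 3. The lowest of them was just under the thymus range of 2.62 to 4.29 and the others within it, so its level did not by itself separate the knockout label from thymus. WT T-ALL ran from 3.17 to 5.78. Only WT T-ALL 110, at 3.17, overlapped the knockout libraries, and the other WT T-ALL libraries, at 3.98 or more, lay above all 3. Values are log2(scaled RPKM + 1) unless another unit is named, where RPKM are reads per length and library size, scaled to a 75th percentile of 10. With the offset of 1, differences understate the fold change of weakly expressed genes. A gene was called when its limma p, adjusted over all genes tested by the Benjamini-Hochberg method, was under 0.05.

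The promoter sequences are shown for the 4 enzymes, of those with a promoter at hand, whose levels correlated most with the mean of the other sterol enzymes across the 14 WT T-ALL libraries, a choice made after the values were seen. These were Cyp51 (r = 0.90), Msmo1 (0.84), Hmgcs1 (0.79) and Mvd (0.74), and without WT T-ALL 3 and 14 their r was 0.83, 0.68, 0.67 and 0.76. RefSeq promoters of 250 bases before and 50 after a transcript start were at hand for 24 of the 30 genes (assembly GRCm38.p6). Only the 250 bases before the start are printed, on the strand of the gene, at chr13:119690101-119690350 (plus strand) for Hmgcs1, chr8:122443423-122443672 (minus) for Mvd, chr5:4104698-4104947 (minus) for Cyp51 and chr8:64733579-64733828 (minus) for Msmo1. Capitals mark CCAAT on either strand (ATTGG where it lies on the other) and, in Hmgcs1, the sterol regulatory element core.
Hmgcs1: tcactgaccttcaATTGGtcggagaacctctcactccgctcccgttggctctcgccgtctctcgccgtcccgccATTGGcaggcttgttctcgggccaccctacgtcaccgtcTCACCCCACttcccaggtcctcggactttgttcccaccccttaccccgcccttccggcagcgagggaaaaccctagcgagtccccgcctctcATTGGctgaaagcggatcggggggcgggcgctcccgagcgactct
Mvd: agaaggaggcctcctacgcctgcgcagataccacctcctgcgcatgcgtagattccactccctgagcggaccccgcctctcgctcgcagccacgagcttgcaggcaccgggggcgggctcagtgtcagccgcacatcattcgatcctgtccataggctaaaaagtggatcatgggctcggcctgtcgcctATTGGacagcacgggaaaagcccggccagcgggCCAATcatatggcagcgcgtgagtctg
Cyp51: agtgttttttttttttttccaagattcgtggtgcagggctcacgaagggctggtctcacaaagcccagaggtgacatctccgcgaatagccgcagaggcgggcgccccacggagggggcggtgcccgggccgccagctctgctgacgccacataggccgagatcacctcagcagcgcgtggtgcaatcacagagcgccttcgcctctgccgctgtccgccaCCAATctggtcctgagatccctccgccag
Msmo1: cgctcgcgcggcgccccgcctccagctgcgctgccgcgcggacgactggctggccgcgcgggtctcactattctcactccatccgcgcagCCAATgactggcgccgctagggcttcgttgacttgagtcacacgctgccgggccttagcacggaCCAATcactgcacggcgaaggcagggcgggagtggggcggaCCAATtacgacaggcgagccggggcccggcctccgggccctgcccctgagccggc
The core of the sterol regulatory element, a site SREBP proteins bind, was searched as TCACNCCAC on both strands of the windows of 300 bases. Only this spelling was searched, so sites with other letters were not counted or marked. It was found in 1 of the 24 genes, Hmgcs1, as TCACCCCAC beginning 137 bases before the start. Of all 27025 genes with a promoter, 1.44% held it. CCAAT, the letters bound by NF-Y, occurred in 20 of 24 members (83.3%) and in 14 of the 15 sterol enzymes with a promoter, against 41.1% of all genes. GGGCGG, a GC box, occurred in 20 of 24 members against 38.2% of all genes, and CACGTG, an E-box, in 5 against 8.09%. These matches describe letters in the window and no more.

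By level, Scd2, a stearoyl-CoA desaturase, led the 30 genes in all 3 groups, with a mean scaled RPKM of 116 in thymus, 94.5 in WT T-ALL and 98.2 in Notch3 KO T-ALL. Acly, which splits citrate to cytosolic acetyl-CoA, came next in each group at 64.6, 60.5 and 53.2. The weakest members were Scd1, Hsd17b7, Tm7sf2 and Lss, each with a mean RPKM under 4 in every group. The related desaturases were far apart, as the ratio of Scd2 to Scd1 RPKM ran from 120 to 473 in thymus (median 206), from 6.34 to 506 in WT T-ALL (median 113), and measured between 50.0 and 68.6 in the 3 Notch3 KO libraries.

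**Figure D1:**
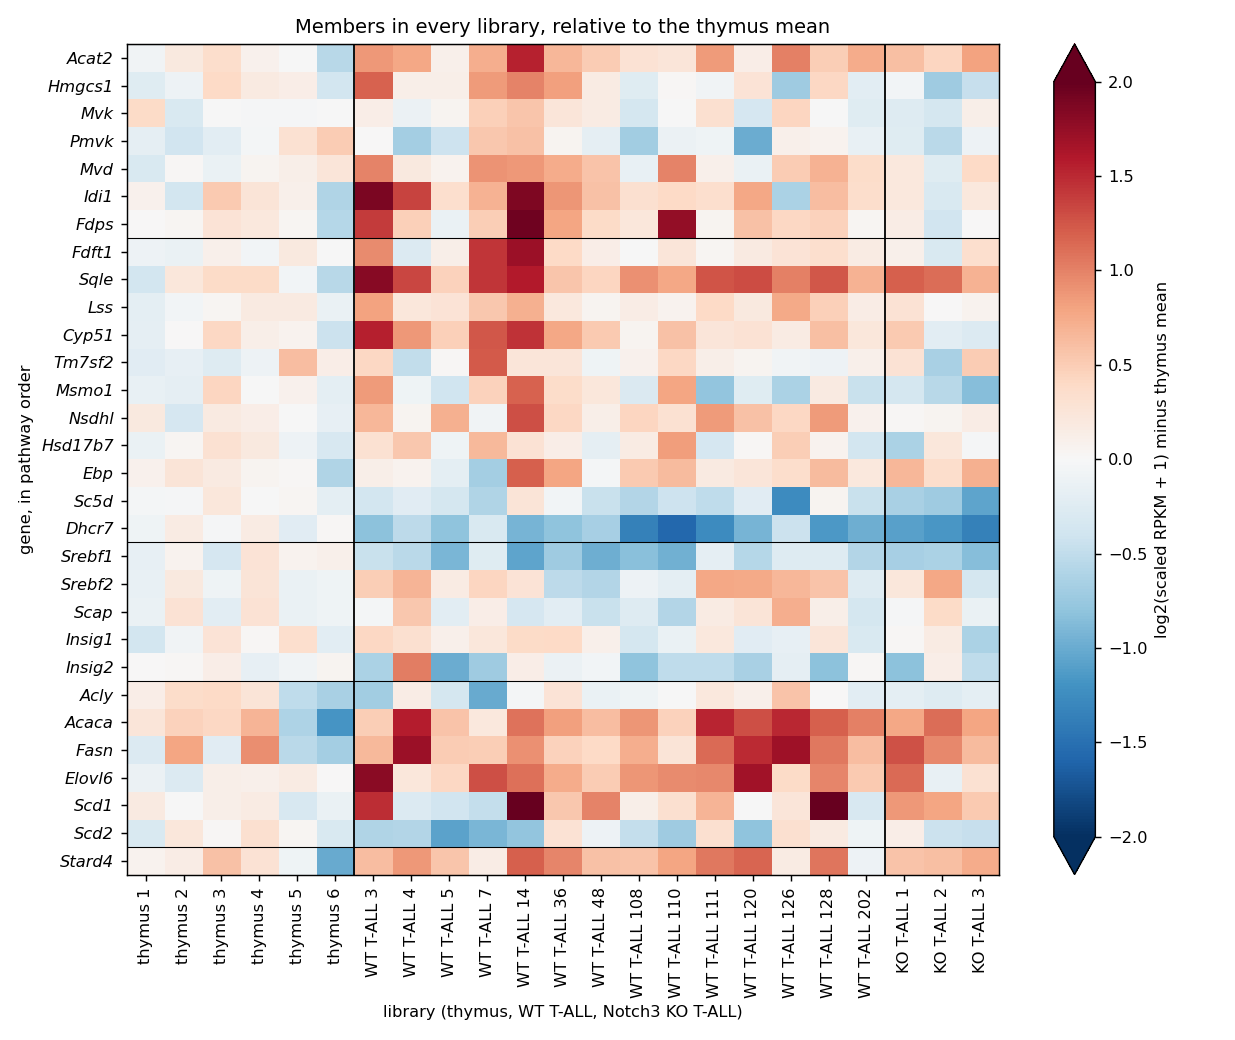
Level of each of the 30 genes (rows, in pathway order, with lines between the roles) in each of the 23 libraries (columns), as log2(scaled RPKM + 1) minus the thymus mean of that gene, with colours saturated at 2. Sqle is red in all 14 WT T-ALL and all 3 Notch3 KO T-ALL columns, Dhcr7 is blue in all of them, and WT T-ALL 3 and 14 hold the strongest reds of the sterol enzymes.

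Setting WT T-ALL beside thymus asks which genes differ between leukemic spleen and the normal tissue of T-cell development. Sqle, Acaca, Elovl6 and Fasn showed the largest rises among the 30 genes on the log2 scale used here, and Dhcr7, Srebf1 and Sc5d were lower. Of the 30 members, 12 rose, 3 fell and 15 did not pass the test. Over all 11919 genes tested, 51.6% were called, 29.3% as higher and 22.3% as lower, so 15 of 30 is a share near the background and is not in itself a result about these genes. The median difference of the members was 0.28, beside 0.08 over all genes.

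In the mevalonate segment 4 of 7 enzymes rose and none fell (57.1% called, beside 51.6% of all genes called in either direction and 29.3% as higher). The count is not in itself a result about the segment. Acat2, which joins acetyl-CoA units at the entry to the pathway, ran from 3.47 to 4.37 in thymus (median 4.06) and from 4.11 to 5.56 in WT T-ALL (median 4.71). The ranges overlapped, and 10 of 14 WT T-ALL libraries lay above all thymus libraries (difference 0.64 ± 0.17 SE, limma adjusted p = 0.00337). Idi1, the isopentenyl diphosphate isomerase, ran from 3.96 to 5.09 in thymus (median 4.66) and from 3.94 to 6.45 in WT T-ALL (median 5.17), a difference of 0.70 ± 0.26 (limma adjusted p = 0.0309). It was 1.32 within set A and 0.42 within set B, and passed the test in neither (adjusted p = 0.0568 and 0.271). The highest Idi1 values were in WT T-ALL 3 and 14, and WT T-ALL 126 lay below every thymus library.
Fdps, which makes farnesyl diphosphate, rose by 0.63 ± 0.25, and Mvd, the decarboxylase that yields isopentenyl diphosphate, by 0.48 ± 0.18 (limma adjusted p = 0.0362 and 0.0258). Hmgcs1, the synthase ahead of mevalonate, differed by 0.26 ± 0.22, and the kinases Mvk and Pmvk by 0.09 ± 0.15 and -0.14 ± 0.19, none of them past the threshold. Of the 4 called here, Acat2 was still called with each library left out in turn. The call of Mvd was lost without thymus 1 or 3 (limma adjusted p up to 0.0689) and that of Idi1 without thymus 2 or 6 (up to 0.0952). Fdps lost its call without thymus 1, 2, 5 or 6 or WT T-ALL 3 (up to 0.108).

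Sqle is squalene epoxidase, a rate-controlling step of the sterol branch (chromosome 15, 59315092 to 59331193). On the log2 scale with the offset of 1, it showed the largest rise of the 30 genes. By mean RPKM the weak gene Scd1 rose by a larger fold (0.57 to 2.15, against 8.23 to 18.4 for Sqle). Sqle ran from 2.61 to 3.54 in thymus (median 3.24) and from 3.60 to 4.98 in WT T-ALL (median 4.28). All 14 WT T-ALL libraries lay above all 6 thymus libraries (difference 1.06 ± 0.19, limma adjusted p = 0.000103). The difference was 1.56 within set A and 0.82 within set B. Sqle lies on chromosome 15, whose 472 tested genes had a median difference of 0.39 against 0.08 over all genes, and the part of this in the Sqle value was not tested.
Among the other squalene and sterol enzymes, Cyp51, the lanosterol demethylase, ran from 2.81 to 3.65 in thymus (median 3.28) and from 3.29 to 4.79 in WT T-ALL (median 3.79), higher by 0.65 ± 0.20 (limma adjusted p = 0.0111). The ranges overlapped, with 9 of 14 WT T-ALL libraries above all thymus libraries. The difference was 1.21 within set A and 0.40 within set B, where it did not pass the test (adjusted p = 0.133). Nsdhl, which takes part in removing methyl groups from the sterol ring, rose by 0.48 ± 0.16, and Lss, which closes the ring to lanosterol, by 0.36 ± 0.13 (limma adjusted p = 0.0152 and 0.0275). The call of Nsdhl was lost without thymus 2 (limma adjusted p = 0.0504) and that of Lss without thymus 1, 2 or 6 (up to 0.0699). Fdft1, squalene synthase, was 0.41 ± 0.22 higher without passing the test. Tm7sf2, Msmo1, Hsd17b7 and Ebp differed by 0.08 to 0.29 and did not pass it either.

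Of the last steps, Dhcr7 and Sc5d were lower. Dhcr7, a reductase that ends a branch of the pathway in cholesterol (chromosome 7, 143823167 to 143848410), ran from 4.35 to 4.74 in thymus (median 4.58) and from 3.01 to 4.28 in WT T-ALL (median 3.71). Every WT T-ALL library lay below every thymus library (difference -0.89 ± 0.15, limma adjusted p = 3.53e-05). It was -0.51 within set A, where it did not pass the test, and -1.06 within set B. Sc5d, the desaturase just before it, ran from 3.71 to 4.12 in thymus (median 3.88) and from 2.64 to 4.16 in WT T-ALL (median 3.51). The difference was -0.37 ± 0.15 (limma adjusted p = 0.0441), with 11 of 14 libraries below all thymus libraries. That call was lost without any of thymus 1 to 5 in turn and without WT T-ALL 3, 7, 48, 108, 110, 111 or 202, with limma adjusted p up to 0.102.

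**Figure D2:**
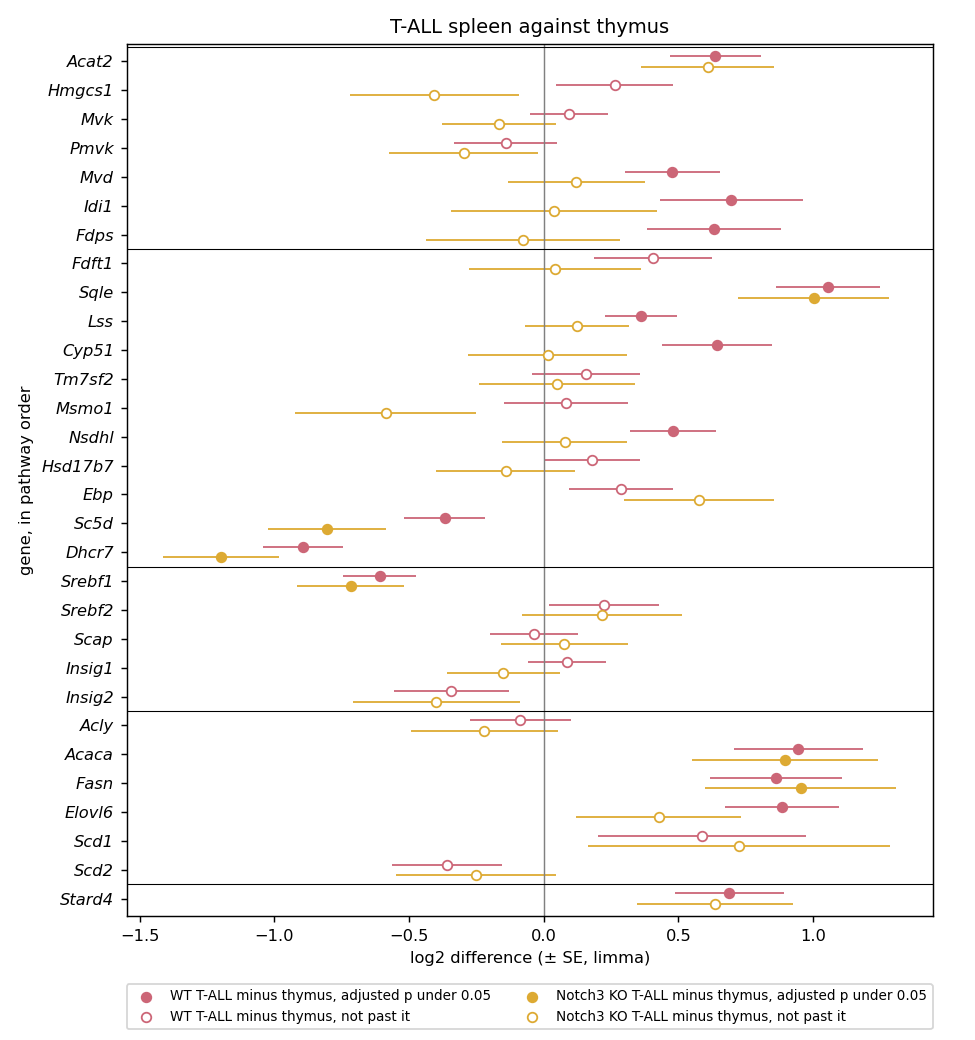
Differences of the log2 level from thymus (x axis, ± SE) for the 30 genes in pathway order, for WT T-ALL (red, n = 14) and Notch3 KO T-ALL (yellow, n = 3) against the same 6 thymus libraries; filled points have a limma adjusted p under 0.05. Filled points stand right of 0 for Sqle, Acaca and Fasn and left of it for Sc5d, Dhcr7 and Srebf1 in both comparisons, which share their controls.

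Of the genes that control SREBP, Srebf1 alone was called. It ran from 4.41 to 5.02 in thymus (median 4.82) and from 3.69 to 4.57 in WT T-ALL (median 4.18), with 10 of 14 libraries below all thymus libraries (difference -0.61 ± 0.14, limma adjusted p = 0.000811). Within set A the difference was -0.62 and did not pass the test (limma adjusted p = 0.0838), and within set B it was -0.60. The lowest value was in WT T-ALL 14, the library with the highest mean of the sterol enzymes. Srebf2, the factor most tied to sterol synthesis, spread from 4.67 to 6.05 in WT T-ALL around a thymus range of 5.12 to 5.53, a difference of 0.22 ± 0.20. Like Sqle it lies on chromosome 15, whose tested genes had a median difference of 0.39, and the part of this in the Srebf2 value was not tested. Scap, the escort protein, differed by -0.04 ± 0.16, Insig1 by 0.09 ± 0.15 and Insig2 by -0.34 ± 0.21, all short of the threshold. Insig2 was at 4.83 in WT T-ALL 4 and at most 3.94 in thymus, while 9 of 14 WT T-ALL libraries were below all thymus libraries. Without WT T-ALL 4 the difference of Insig2 was -0.45 and passed the test (limma adjusted p = 0.0273).

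In fatty acid synthesis 3 of 6 genes rose and none fell (50.0% called, beside 51.6% of all genes called in either direction and 29.3% as higher). This count too is not in itself a result about the list. Elovl6, which lengthens palmitate, ran from 1.66 to 2.10 in thymus (median 1.99) and from 2.16 to 3.74 in WT T-ALL (median 2.84). The groups did not overlap (difference 0.89 ± 0.21, limma adjusted p = 0.00136), and the difference was 0.84 within set A, where it did not pass the test (adjusted p = 0.245), and 0.91 within set B. Acaca, acetyl-CoA carboxylase, ran from 1.50 to 3.37 in thymus (median 3.01) and from 2.89 to 4.25 in WT T-ALL (median 3.62), a difference of 0.95 ± 0.24 (limma adjusted p = 0.00216). Its lowest thymus values, 2.06 and 1.50, were those of thymus 5 and 6, the thymus libraries of set A, and the difference was 1.61 within set A and 0.59 within set B. Fasn, fatty acid synthase, was higher by 0.86 ± 0.24 (limma adjusted p = 0.00531), by 1.45 within set A and by 0.57 within set B, where it did not pass the test (adjusted p = 0.116). Acly differed by -0.09 ± 0.19 and Scd2 by -0.36 ± 0.21, neither past the threshold.
Scd1 had the widest spread of the 30 genes in WT T-ALL (SD 1.04), from 0.16 to 3.52 with a median of 0.92, against 0.32 to 0.82 in thymus. WT T-ALL 14, 128 and 3 held the high values of 3.52, 3.09 and 2.11. The mean difference of 0.59 ± 0.39 did not pass the test. Stard4, which carries sterol between membranes, rose by 0.69 ± 0.20 (limma adjusted p = 0.00653), from a thymus range of 1.77 to 3.37 to 2.68 to 3.97 in WT T-ALL. It was 1.09 higher within set A and 0.48 within set B, where it did not pass the test (adjusted p = 0.0952).

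Erythroid and proliferation marker sums also ran higher in WT T-ALL than in thymus. The summed RPKM of 12 erythroid markers was 24.6 to 393 in thymus and 773 to 52105 in WT T-ALL, and that of 8 proliferation markers 608 to 1062 and 959 to 2128. Neutrophil sums (57.1 to 531 and 637 to 84652) and megakaryocyte sums (0.71 to 1.27 and 4.18 to 200) were higher too. B-cell sums were lower (17.2 to 22.9 and 0.51 to 5.80). These last scores were not used as covariates. With the erythroid marker score as a covariate, all 15 called members kept their sign and 1 of the 15, Cyp51, was called (1.40, limma adjusted p = 0.0398). Some differences were as large or larger in that fit, as for Sqle (1.26), Elovl6 (1.31), Idi1 (0.99), Mvd (0.92) and Fasn (0.92), and others were smaller, as for Dhcr7 (-0.30), Srebf1 (-0.15) and Acaca (0.28). With the proliferation score, 12 of 15 kept their sign and 3 were called (Mvd, Sc5d and Dhcr7, at 0.87, -0.91 and -0.80). In that fit Sqle was at 0.42, Fasn at 0.39, Cyp51 at 0.21, Acat2 at 0.14 and Acaca at 0.08, none of them called. These scores differ between the groups as well, and their part in the result was not tested. In bulk tissue, fewer cells of a type and less RNA per cell cannot be told apart. Within set A, 5 of the 15 were called and within set B 6, and all 15 had the same sign in each. The 15 were called in a fit that holds these same libraries, so the shared sign is no separate support. Over all genes the number called ran from 1112 to 6622 across the fits run. Lower counts in a fit are therefore not shown to be particular to the members.

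**Figure D3:**
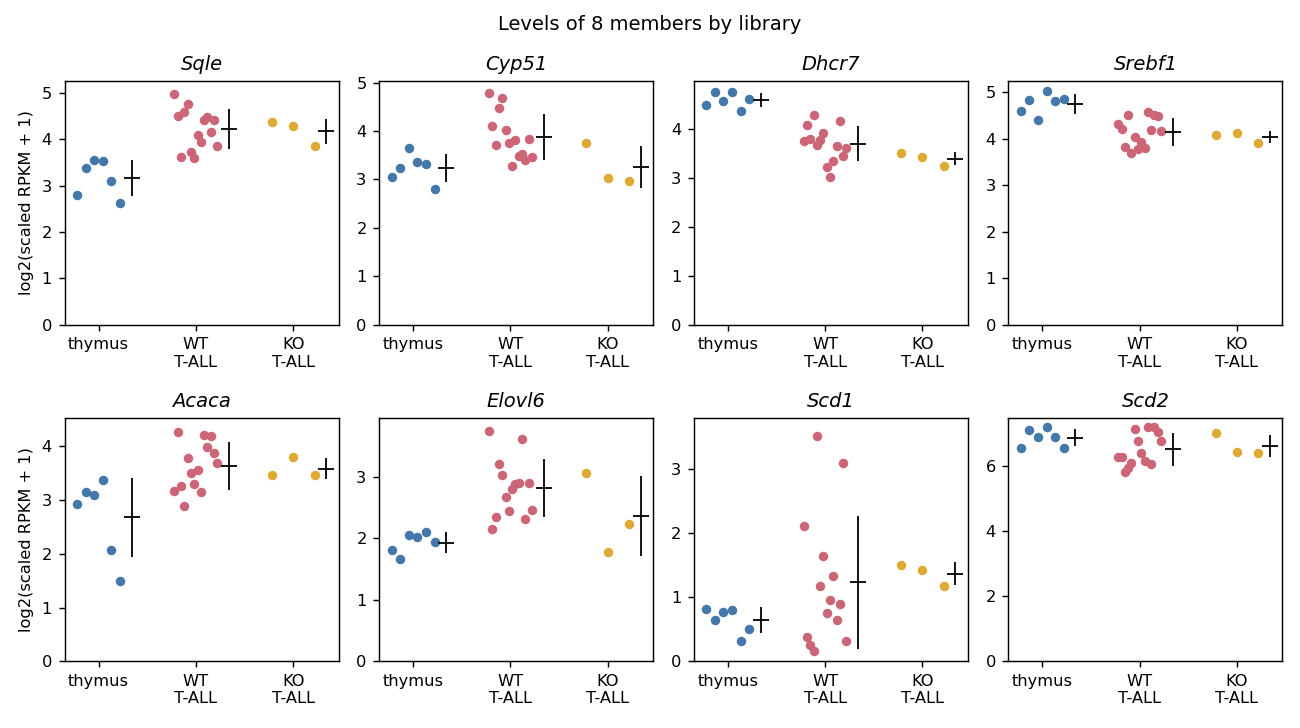
Levels, as log2(scaled RPKM + 1), of 8 members in the 6 thymus (blue), 14 WT T-ALL (red) and 3 Notch3 KO T-ALL (yellow) libraries; each point is 1 library, and the black marks give the group mean ± SD. Sqle and Elovl6 in WT T-ALL lie above all thymus points, Dhcr7 lies below them, and Scd1 scatters from 0.16 to 3.52.

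Against the same thymus libraries, Notch3 KO T-ALL showed higher Sqle, Acaca and Fasn and lower Sc5d, Dhcr7 and Srebf1, 6 of 30 members called where 37.5% of all 11919 genes were (21.2% higher, 16.3% lower). Sqle was at 4.36, 4.28 and 3.86 in libraries 1, 2 and 3, all above thymus (difference 1.00 ± 0.28, limma adjusted p = 0.00726). The median difference of the 472 chromosome 15 genes was 0.44 here. Dhcr7 was at 3.49, 3.42 and 3.23, all below thymus, with a difference of -1.20 ± 0.22 on the log2 scale (limma adjusted p = 0.000182). Sc5d, at 3.24, 3.19 and 2.85, and Srebf1, at 4.08, 4.13 and 3.90, also lay below every thymus library (differences -0.80 ± 0.22 and -0.72 ± 0.20, limma adjusted p = 0.00579 and 0.00677).
Acaca was at 3.46, 3.80 and 3.46, above all thymus libraries, and Fasn at 5.33, 5.01 and 4.68, with library 3 inside the thymus range. Their differences were 0.90 ± 0.35 and 0.95 ± 0.35 (limma adjusted p = 0.0436 and 0.0369). All 3 Notch3 KO libraries lie in set A with thymus 5 and 6, and within that set the differences were 1.79 and 1.57 (limma adjusted p = 0.0111 and 0.0151). With the split as a term they were 1.33 and 1.16 (limma adjusted p = 0.0024 and 0.0191). Both calls depended on single libraries in the fit of all groups. That of Acaca was lost without any of the 3 Notch3 KO libraries in turn and without thymus 5 or 6 (limma adjusted p up to 0.133), and that of Fasn without any of the 3 and without thymus 1, 3, 5 or 6 (up to 0.156). Sc5d lost its call without Notch3 KO T-ALL 3 (-0.68, limma adjusted p = 0.0512). Sqle, Dhcr7 and Srebf1 kept their calls with each library left out in turn. The erythroid marker sum was 31575 to 103515 in Notch3 KO T-ALL, and with that score as a covariate none of the 6 members was called by limma, with Sqle at 1.30, Dhcr7 at -0.32, Sc5d at -0.61, Srebf1 at -0.04, Fasn at 1.04 and Acaca at -0.10. With the proliferation score Sc5d and Dhcr7 were called (-1.45 and -1.08), and Sqle was at 0.24. The part of these markers in the result was not tested. No mevalonate enzyme was called in this comparison: Acat2, at 4.62, 4.44 and 4.82, lay above all thymus libraries (0.61 ± 0.25, limma adjusted p = 0.0539, and called without thymus 3 or WT T-ALL 5, 14, 110 or 120, with adjusted p down to 0.0245). Acat2 was also called within set A (0.89, limma adjusted p = 0.0449) and with the split as a term (0.71, limma adjusted p = 0.0386). With that term Stard4 (0.90) and Ebp (0.96) were called too (limma adjusted p = 0.0193 and 0.00373), against 0.64 and 0.58 in the fit without it. Idi1, Fdps and Cyp51 differed by 0.04 ± 0.38, -0.08 ± 0.36 and 0.02 ± 0.30. The median over the 30 members was 0.04, beside 0.08 over all genes.

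The test of the 2 T-ALL groups against each other asks whether donor Notch3 goes with a difference among leukemias. None of the 30 members was called by limma, and 2 had an unadjusted p under 0.05. Over all 11677 genes tested, 0.617% were called, 0.591% higher and 0.0257% lower in Notch3 KO T-ALL, and 994 genes had an unadjusted p under 0.05. Those 2 members were Hmgcs1, at 4.39, 3.73 and 3.98 against 3.73 to 5.62 in WT T-ALL (-0.67 ± 0.31, limma adjusted p = 0.542), and Cyp51, at 3.76, 3.03 and 2.97 against 3.29 to 4.79 (-0.63 ± 0.29, limma adjusted p = 0.541). The KO values of both sat in the lower part of the WT range or below it.
Within set A, which holds all Notch3 KO libraries, Hmgcs1 differed by -0.97, Cyp51 by -1.02 and Idi1 by -1.03, and with the erythroid score as a covariate by -0.21, -0.18 and -0.42, and none passed the test in either fit.
The mean was lower in Notch3 KO T-ALL for 17 of the 18 sterol enzymes, Ebp being the other, and for 5897 of all 11677 genes (50.5%). The median over the 18 was -0.34, beside -0.0027 over all genes. The counts rest on the same 3 libraries, whose hemoglobin shares were 4.05%, 15.5% and 9.27%, against 5.92% in the highest WT T-ALL library. A rise of Idi1 or Fdps against thymus in WT T-ALL without one in Notch3 KO T-ALL is not shown to differ between them (differences of -0.66 ± 0.37 and -0.71 ± 0.35, limma adjusted p = 0.712 and 0.618). The fatty acid genes differed by -0.46 ± 0.31 (Elovl6) to 0.14 ± 0.57 (Scd1), with Fasn at 0.09 ± 0.28 and Acaca at -0.05 ± 0.26. Within set A Scd1 differed by 0.64 and Scd2 by 0.54, and neither passed the test.

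Across the 14 WT T-ALL libraries the median Pearson's r over the 153 pairs of the 18 sterol enzymes was 0.34, beside -0.0008 over all pairs of the 11919 genes. Without WT T-ALL 3 and 14 it was 0.16, beside -0.0040, so much of it rests on those libraries, and within set B it was 0.42. Leaving out WT T-ALL 3 and 14 also took the r of single enzymes with the mean of the others from 0.59 to 0.11 for Acat2, from 0.67 to 0.21 for Idi1, from 0.56 to 0.19 for Sqle and from 0.60 to 0.20 for Lss. Cyp51 and Hmgcs1 had the highest value of any pair of members, 0.89, followed by Msmo1 and Fdps at 0.88. All points share library and scaling, and these values are given as a description. Cyp51 followed the mean of the other 17 enzymes most closely (r = 0.90, Spearman's rho = 0.87, and r = 0.83 without WT T-ALL 3 and 14, the libraries farthest from the median). Dhcr7 had the lowest r of the 18 (0.09, rho = 0.13, and r = 0.15 without those libraries), but that place depends on the measure: Nsdhl had the lowest rho (0.0066), and without WT T-ALL 3 and 14 Nsdhl (r = -0.36) and Ebp (-0.22) were lower. Insig1, an SREBP target as well as its brake, had r = 0.69 with the mean of the 18 (rho = 0.79, and r = 0.60 without WT T-ALL 3 and 14). Srebf2 and Srebf1, the genes of the factors themselves, had r = 0.10 and -0.08. Without WT T-ALL 3 and 14 these were 0.0022 and 0.29, and within set B -0.0038 and -0.42, so the value of Srebf1 depends on the libraries.
Fasn, Scap, Srebf2 and Acaca went together (r of 0.53 to 0.88). The median r was 0.21 over all 15 pairs of fatty acid synthesis members and 0.18 over the 10 pairs of SREBP control members. Fasn had r = 0.88 with Acaca and 0.87 with Scap, and Scap 0.80 with Srebf2, whereas Elovl6 had r = -0.10 with Fasn and -0.28 with Acaca. Both Acly and Acaca ran against several sterol enzymes, to -0.71 for Acaca and Tm7sf2. WT T-ALL 7 was the lowest WT T-ALL library for Acly (4.97) and Acaca (2.89) and the highest for the weak gene Tm7sf2 (2.91). Its mitochondrial genes made up 45.9% of the summed RPKM, where the WT T-ALL median was 14.4%. These r were not computed without that library. Scd1 had r = 0.64 with the mean of the 18, and 0.17 without WT T-ALL 3 and 14, so that value rests on those libraries. The mean of the 18 enzymes itself ran from 3.34 in WT T-ALL 108 to 4.34 in WT T-ALL 14, with a median of 3.54, against 3.16 to 3.55 in thymus and 3.15 to 3.43 in Notch3 KO T-ALL.
It had r = -0.23 with the erythroid score, 0.27 with the proliferation score and 0.54 with the adipocyte score in the 14 libraries. Without WT T-ALL 3 and 14 these became -0.58, -0.39 and 0.44. Of the 8 genes of the adipocyte list, Adipoq, Plin1, Cidec, Retn and Lep were at most 0.40 on the log2 scale in every library. Cfd reached 1.30 in WT T-ALL with a median of 0, Lipe ran from 2.14 to 2.50 in thymus and from 0.96 to 2.39 in WT T-ALL, and Fabp4 from 0.16 to 0.99 and from 0.88 to 3.30. Their part in the value of 0.54 was not tested.

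**Figure D4:**
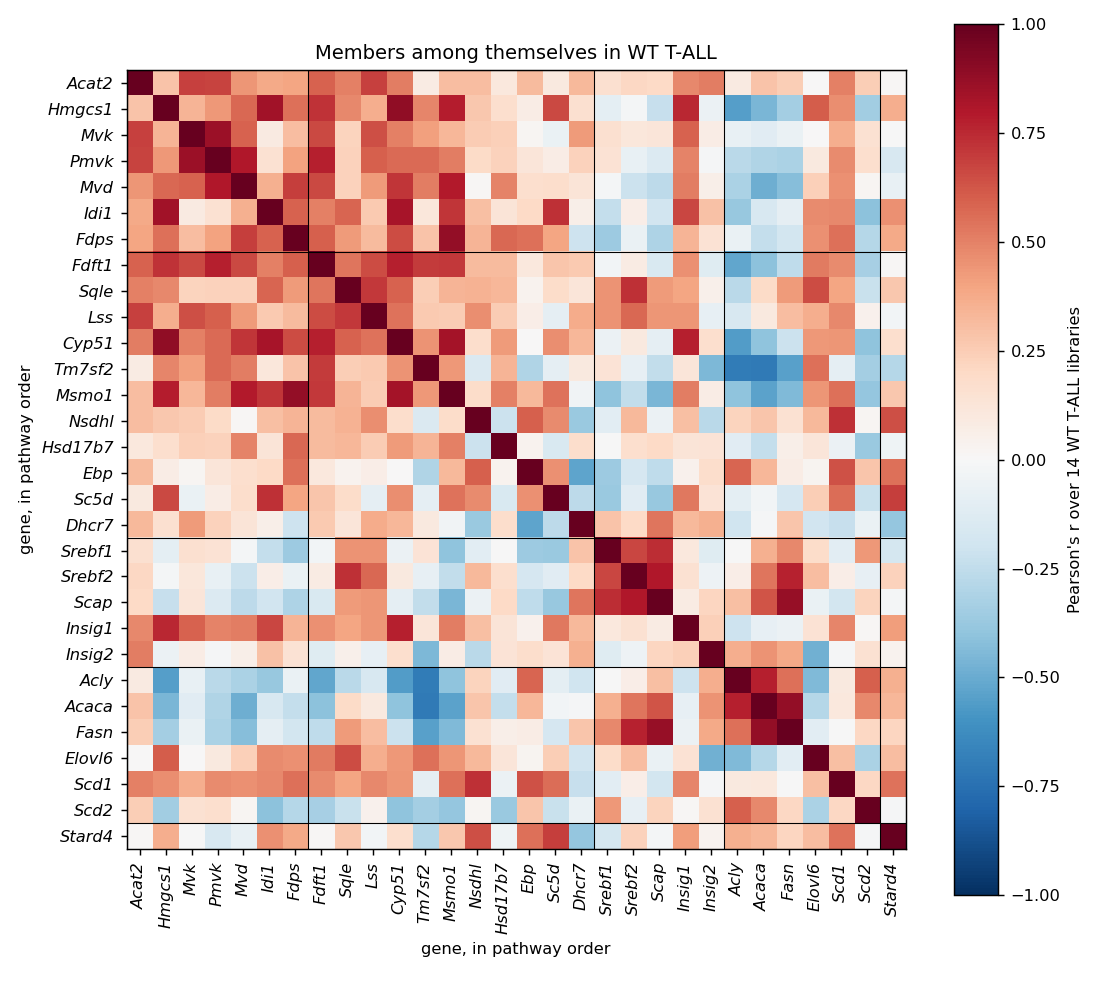
Pearson's r between members across the 14 WT T-ALL libraries (both axes: the 30 genes in pathway order, lines between the roles; colour: r from -1 to 1). The red block at the upper left holds most mevalonate and sterol enzymes, Dhcr7 stands outside it (r = 0.09 with the mean of the other 17), and Acaca with Fasn (r = 0.88) joins Scap and Srebf2.

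The other genes of the pathway were read from 4 further lists. Of 18 genes of cholesterol uptake, efflux and storage, 16 were tested against thymus in WT T-ALL, and 4 rose and 8 fell (12 of 16 tested, where 51.6% of all genes were called). Abca1, the exporter of cholesterol to lipid-poor apolipoprotein, ran from 2.68 to 3.54 in thymus (median 3.22) and from 0.14 to 2.01 in WT T-ALL (median 0.73). The groups did not overlap (-2.34 ± 0.24, limma adjusted p = 4.74e-08), and Notch3 KO T-ALL libraries were at 1.13, 1.45 and 1.40 (-1.85 ± 0.34, limma adjusted p = 0.000232). Lipa, the lysosomal lipase that frees cholesterol from its esters, was lower by -1.84 ± 0.29 in WT T-ALL and -1.78 ± 0.42 in Notch3 KO T-ALL (limma adjusted p = 1.63e-05 and 0.00185).
A further 3 genes were chosen after their values were seen. Abcg1, another cholesterol exporter, Mylip, the ligase that marks the low-density lipoprotein receptor for degradation, and Npc1, the lysosomal cholesterol exporter, were lower in WT T-ALL by -1.66 ± 0.24, -1.83 ± 0.16 and -1.30 ± 0.15, each with no overlap between the groups. Nr1h3 and Nr1h2 in WT T-ALL were likewise chosen after their values were seen. Nr1h3, which encodes a liver X receptor, was higher, from 0.55 to 1.18 in thymus to 0.99 to 3.50 in WT T-ALL and 3.18, 2.50 and 3.25 in Notch3 KO T-ALL, and Nr1h2, the other, was lower by -0.46 ± 0.10 in WT T-ALL. Macrophages express Nr1h3 and Apoe strongly. The RPKM of 9 macrophage markers summed to 7.65 to 64.0 (thymus), 27.6 to 450 (WT T-ALL) and 309 to 474 (Notch3 KO T-ALL), and its part in the values of these genes was not tested.

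**Figure D5:**
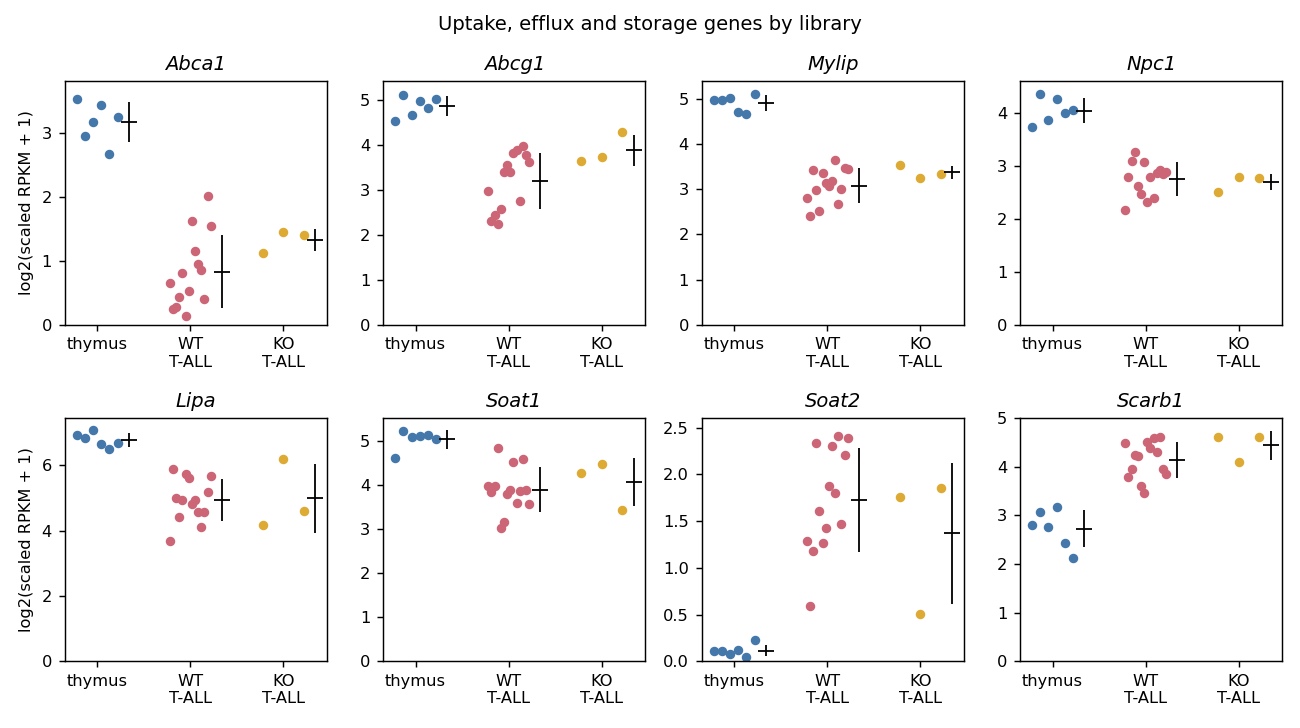
Levels, as log2(scaled RPKM + 1), of 8 genes of cholesterol uptake, efflux and storage in the 6 thymus (blue), 14 WT T-ALL (red) and 3 Notch3 KO T-ALL (yellow) libraries; each point is 1 library, and the black marks give the group mean ± SD. Abca1, Abcg1, Mylip, Npc1 and Lipa lie below thymus in every T-ALL library, and Soat2 and Scarb1 above it.

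Soat2, which esterifies cholesterol, showed the largest rise of that list in WT T-ALL. It was at 0.05 to 0.23 in thymus and 0.59 to 2.41 in WT T-ALL (1.61 ± 0.24, limma adjusted p = 1.08e-05), and at 1.76, 0.50 and 1.85 in Notch3 KO T-ALL, where its call was lost without library 1 or 3. Scarb1, the receptor that takes up cholesterol esters from high-density lipoprotein, ran from 2.13 to 3.16 in thymus and from 3.47 to 4.62 in WT T-ALL (1.42 ± 0.18, limma adjusted p = 9.61e-07). In Notch3 KO T-ALL, 5 genes of this list rose and 7 fell (12 of 16 tested, beside 37.5% of all genes), with the largest rises in Apoe (2.47 ± 0.58) and Nr1h3 (2.11 ± 0.44, limma adjusted p = 0.00187 and 0.000741). That order depends on the offset of 1. With an offset of 0.1 the rises were 3.08 for Soat2, 2.95 for Nr1h3 and 2.50 for Apoe. With the erythroid score as a covariate, Apoe was at 0.06 and Nr1h3 at 2.33, and neither was called (limma adjusted p = 0.986 and 0.223). Apoe, which carries lipid between cells, was at 7.95, 7.85 and 8.23 in libraries 1, 2 and 3, above 6.15, the highest thymus value.
Of 20 other synthesis and SREBP processing genes, 18 were tested, and in WT T-ALL 7 rose and 3 fell, 10 of 18 where 51.6% of all genes were called. Fads2, a fatty acid desaturase, and Mid1ip1, which activates acetyl-CoA carboxylase, rose by 0.97 ± 0.32 and 0.87 ± 0.30, while Acss2, which makes acetyl-CoA from acetate, and Mbtps1, the protease that makes the first cut in SREBP, were lower by -1.04 ± 0.15 and -0.72 ± 0.22. Acss2 did not overlap between the groups. In Notch3 KO T-ALL, 6 rose and 2 fell (8 of 18, beside 37.5% of all genes), led by Mid1ip1 (1.28 ± 0.43), the elongase Elovl1 (1.12 ± 0.27), Acss2 (-1.12 ± 0.21) and Mbtps1 (-0.98 ± 0.31).
Of the 14 genes of the isoprenoid branches, 7 rose and 2 fell in WT T-ALL (64.3%, beside 51.6% of all genes), and 5 rose and 1 fell in Notch3 KO T-ALL (42.9%, beside 37.5%). Pdss1 and Coq2, which build ubiquinone from isoprenoid units, rose by 1.24 ± 0.18 and 0.95 ± 0.15 in WT T-ALL, and Rabggta, a subunit that prenylates Rab proteins, and Icmt, which methylates prenylated proteins, were lower by -0.54 ± 0.16 and -0.45 ± 0.19. In Notch3 KO T-ALL, Pdss1 (1.06 ± 0.26) and Rabggtb (0.98 ± 0.29), the partner subunit of Rabggta, led the rises, and Rabggta was the fall (-0.72 ± 0.23). Of 16 genes of fatty acid oxidation, 14 were tested. In WT T-ALL 5 rose, led by Cpt1a (1.31 ± 0.27), which admits fatty acids to the mitochondrion, and Acaa2 (1.31 ± 0.26), the thiolase of the last step, and 1 fell, Acadm (-0.62 ± 0.15), so 6 of 14 tested were called where 51.6% of all genes were. In Notch3 KO T-ALL, Acaa2 (1.28 ± 0.38) and Cpt2 (0.74 ± 0.19) rose, 2 of 14 where 37.5% of all genes were called. With the erythroid score as a covariate, 9 of the 37 calls of the 4 lists in WT T-ALL were still made (Abca1, Abcg1, Acss2, Coq2, Dpagt1, Lipa, Lpcat3, Mylip and Pdss1) and 2 of 28 in Notch3 KO T-ALL (Abca1 and Acss2). In that fit the sign turned for 3 genes in WT T-ALL (Apoe, Rabggta and Slc25a20) and for 4 in Notch3 KO T-ALL (Acaa2, Pltp, Rabggta and Rnf139). With the proliferation score 11 and 9 calls were still made. Leaving out 1 library in turn ended 7 of the 37 calls in WT T-ALL and 13 of 28 in Notch3 KO T-ALL in at least 1 case. In WT T-ALL these were Fads2 (thymus 6), Icmt (16 libraries in turn), Apoe, Lpcat3, Faf2, Dhdds and Slc25a20. In Notch3 KO T-ALL they were Abcg1, Soat1, Soat2, Pltp, Coq2, Fntb, Fads1, Elovl5 and Rnf139, besides Mid1ip1 (libraries 1 or 3), Mbtps1 (library 3), Rabggta (2 or 3) and Acaa2 (1), and without each of these adjusted p was above 0.05. No gene of the 4 lists was called between the T-ALL groups.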

How the data were processed

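RNA from 23 samples was made into stranded mRNA libraries and read as pairs of 100 bases. By the study's methods the authors mapped reads to the mm10 transcriptome with OSA in ArrayStudio. The deposited values are read here as log2(RPKM + 1), with the authors' RPKM scaled to a 75th percentile of 10 in every library, a scale that follows from the values. Without counts, library depth stays unknown. A gene was tested when its scaled RPKM reached 1 in 3 or more of the fitted samples, using limma 3.58.1 under R 4.3.3 (lmFit, eBayes with trend and robust; Benjamini-Hochberg threshold 0.05). Both comparisons with thymus came from 1 fit of all groups, and that of the T-ALL groups from those groups alone. The fit was tested on simulated data. The study describes its T-ALL cases as individual mice; the labels give only sample numbers. All 30 members were described, and from each other list the called genes were named that rose most (2) and fell most (2), with a few others said in the text to be chosen after their values were seen or listed because a call was lost. Members and lists were chosen with earlier results of these data known, and the split of the libraries was found in the data. Alternatives were other offsets, filters and scalings, marker scores as covariates, a replicate block and leaving out libraries.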

Additional observations from a re-analysis of the deposited data

Results flagged for a closer look

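Among the 6 thymus libraries, each of the 30 genes was checked for a library set apart from the others, by its gap to the nearest library over the range of the group (limit 0.625), and 2 were found. Chance alone marks about 1 in 20 groups. Both values were in thymus 6. Fdps was at 4.57 there and at 5.15 to 5.41 in the other thymus libraries, with a gap of 0.69 of the range. Ebp was at 3.65 there and at 4.28 to 4.51 in the others, with a gap of 0.74. Thymus 6 was the lowest thymus library for 14 of the 30 genes. Its mitochondrial genes made up 24.2% of the summed RPKM, against 7.30% to 14.4% in the other thymus libraries, and its proliferation marker sum of 608 was the lowest of all libraries.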

How the results depend on the processing

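The number of members called against thymus was 15 for WT T-ALL and 6 for Notch3 KO T-ALL. With the erythroid marker score as a covariate these became 1 and 0, with the proliferation score 3 and 2, and with the adipocyte score 9 in WT T-ALL. The count over all genes changed between fits as well, as given below, so these falls are not shown to be particular to the members. Within set A of the libraries WT T-ALL gave 5, and within set B 6. Leaving out 1 library in turn gave 10 to 16 for WT T-ALL, and 3 to 7 for Notch3 KO T-ALL, the lowest without Notch3 KO T-ALL 3. Between the T-ALL groups the count was 0 under every alternative run, while the count over all genes there ran from 1 to 254 (and from 1112 to 6622, and 202 to 5130, in the WT and Notch3 KO T-ALL comparisons with thymus). With the proliferation score, signs turned for Idi1 (-0.47), Nsdhl (-0.0229) and Stard4 (-0.16) in WT T-ALL, and for Acaca (-0.13) in Notch3 KO T-ALL. With the erythroid score that of Acaca in Notch3 KO T-ALL turned as well (-0.10). None of these passed the test, and the cause was not tested. Both scores also differ between the groups. Other offsets, filters and quantile scaling left the counts within 1.5 times the reported ones.

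The same replicate numbers occur in several groups, and with the number as a replicate block 5 members were called in WT T-ALL and 4 in Notch3 KO T-ALL. Deviations of same-numbered libraries from their group means had correlations of -0.24 to 0.15, so the numbers were not taken as pairs.

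The files used here give no counts, so how far depth limits the weak genes (Scd1, Hsd17b7, Tm7sf2, Lss) is unknown. With 3 Notch3 KO libraries the standard errors of the members against thymus ran from 0.19 to 0.56.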
